A study of Mus musculus with 12 samples.

Results

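The genes that make prostaglandins and the genes for the receptors that answer them were followed in colon and urinary bladder after induced deletion of Yap1 and Wwtr1, the genes for YAP and TAZ, in smooth muscle. The group holds 10 genes picked by symbol, 5 enzymes (Ptgs1, Ptgs2, Ptgis, Ptges, and Ptgds) and 5 receptors (Ptger1 to Ptger4 and Ptgfr), and all 10 were found among the 54532 genes listed for each library. RNA from whole tissue was sequenced in 12 libraries, 3 for each genotype and tissue. Y/T KO mice carried floxed Yap1 and Wwtr1 (the gene for TAZ) and Myh11-CreERT2, a tamoxifen-inducible Cre recombinase under a smooth muscle promoter, and Ctrl mice carried the same floxed genes without Cre. All mice were male and 5 to 7 weeks old, all received 1 mg tamoxifen a day in 5 injections, and tissue was taken on day 7 after the first injection. The 9 mice included 3 that gave both tissues (Ctrl mouse 788 and Y/T KO mice 783 and 780). The Cre transgene lies on the Y chromosome, and the Myh11 promoter directs Cre to smooth muscle, that of vessels included, and not to the other cells of the tissue. Cre itself was present in Y/T KO mice alone, so its presence and the deletion cannot be told apart.

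Prostaglandins are lipid signals made from arachidonic acid, which phospholipases release from membranes, which the cyclooxygenases turn into PGH2, and which terminal synthases turn into PGE2, PGI2 (prostacyclin), PGD2, PGF2α, or thromboxane. They act nearby through G-protein–coupled receptors. In the gut and bladder wall, EP1, EP3, and FP receptors are known for contracting smooth muscle, and EP2, EP4, and the prostacyclin receptor for relaxing it through cAMP. Prostaglandins from mesenchyme also maintain the gut epithelium, and those made in the bladder wall raise the excitability of its sensory nerves.

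Levels are given as TPM, transcript counts scaled by transcript length and to the same total in each library, so that genes can be compared with each other. TPM values in a list are ordered by mouse, 788, 786, and 787 for Ctrl colon, 759, 783, and 780 for Y/T KO colon, 784, 785, and 788 for Ctrl bladder, and 782, 783, and 780 for Y/T KO bladder. A log2 difference is the fitted difference of log2(TPM + 0.1) after libraries were rescaled, with its standard error (SE) and a Benjamini-Hochberg adjusted p from limma over all genes tested, and a gene was called under 0.05. A gene was tested if it reached 0.5 TPM in at least 3 of the fitted libraries. Whether the groups overlapped for a single gene was counted on rescaled TPM.

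The libraries held 2.80 to 3.94 gigabases of aligned sequence. Genes of colon epithelium summed to 4213 to 4986 TPM in Ctrl colon and 23.4 to 31.6 TPM was the range for urothelial genes there, whereas in Ctrl bladder the same lists summed to 168 to 209.6 and 5300 to 5761 TPM, so each tissue held the markers of its label except Muc2, a goblet cell mucin, which was too low in colon to pass the filter. Of the targeted genes, Yap1 was lower in all 3 Y/T KO bladder libraries than in all 3 Ctrl libraries, with a log2 difference of -0.54 (SE 0.08, adjusted p = 0.0625), but overlapped in the colon, at -0.17 (SE 0.14, adjusted p = 0.697), and Wwtr1 overlapped in both tissues. Smooth muscle markers (9 genes) summed to 7592 to 8321 TPM in Ctrl colon against 4972 to 5849 in Y/T KO colon, and to 35340 to 45980 in Ctrl bladder against 16900 to 30980 in Y/T KO bladder. Pancreatic acinar genes (7 genes) summed to 7.78 to 142 TPM in Ctrl colon and 0.344 to 1.08 TPM in Y/T KO colon. Immediate-early genes, which respond to stimulation and handling within minutes, are given beside Ptgs2.

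The position of each member is that of the files, GRCm38. Ptgs1 lay at chr2:36230426-36252272 (plus strand), Ptgs2 at chr1:150100031-150108227 (plus), Ptgis at chr2:167191805-167240604 (minus), Ptges at chr2:30889471-30929863 (minus), and Ptgds at chr2:25466709-25470046 (minus). Among the receptors, Ptger1 lay at chr8:83666678-83672753 (plus), Ptger2 at chr14:44988195-45003820 (plus), Ptger3 at chr3:157566892-157645888 (plus), Ptger4 at chr15:5206661-5244187 (minus), and Ptgfr at chr3:151796502-151837630 (minus). Ptger4 shares 11676 bases with Ttc33 on the opposite strand. The library kit keeps the strand, but whether strand was used in the quantification is not given in the sources used here, so reads of genes that overlap on opposite strands may not have been told apart, and values of Ptger1 and Ptger4 are uncertain to that extent.

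The promoters of 3 members are shown, those of Ptgs1 and Ptgfr because their libraries separated by genotype in 1 tissue, and that of Ptges because it was the only member promoter with the TEAD element searched. TEAD factors carry YAP and TAZ to DNA and bind GGAATG, and SRF, the factor of contractile genes, binds the CArG box. The sequences are RefSeq's (GRCm38.p6), from 250 bases before the annotated start to 50 after it, in the direction of the gene, and were given for 8 of the 10 members (not for Ptgis or Ptger1). Capitals mark a match to 1 of the searched motifs, which were the TATA box (TATAAA), the TEAD element (GGAATG), the AP-1 site (TGACTCA), the cAMP response element (TGACGTCA), and the CArG box, each on both strands.
Ptgs1 promoter, chr2:36230176-36230475, plus strand: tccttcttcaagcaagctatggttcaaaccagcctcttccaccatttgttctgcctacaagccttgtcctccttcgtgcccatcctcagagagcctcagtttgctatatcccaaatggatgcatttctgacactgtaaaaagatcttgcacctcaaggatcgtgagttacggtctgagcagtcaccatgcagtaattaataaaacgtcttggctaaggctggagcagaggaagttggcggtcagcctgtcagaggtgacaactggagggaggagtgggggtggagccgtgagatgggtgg
Ptgfr promoter, chr3:151837479-151837778, minus strand: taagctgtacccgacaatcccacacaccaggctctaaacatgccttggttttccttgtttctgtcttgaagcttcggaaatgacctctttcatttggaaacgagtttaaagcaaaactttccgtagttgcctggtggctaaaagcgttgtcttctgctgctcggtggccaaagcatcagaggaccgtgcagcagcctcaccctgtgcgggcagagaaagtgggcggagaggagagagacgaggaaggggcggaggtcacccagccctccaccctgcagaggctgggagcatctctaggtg
Ptges promoter, chr2:30903248-30903547, minus strand: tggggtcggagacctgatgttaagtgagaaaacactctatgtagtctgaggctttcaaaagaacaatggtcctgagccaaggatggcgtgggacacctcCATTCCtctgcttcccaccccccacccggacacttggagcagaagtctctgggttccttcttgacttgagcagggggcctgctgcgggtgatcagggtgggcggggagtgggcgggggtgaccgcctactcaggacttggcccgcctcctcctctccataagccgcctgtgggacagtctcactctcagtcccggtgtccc
The RefSeq start of Ptges lies inside the gene span given above. Its match is GGAATG read on the strand opposite to the gene (CATTCC as printed), from position -151 to -146 relative to the start. The TEAD element was present in 14.7% of all 32851 promoters in the table. In the Ptgs1 and Ptgfr windows none of these motifs were found. Among the other members, Ptgds had the AP-1 site from -35 to -29, held by 5.20% of promoters, and no other match was found in the 8 windows, although the TATA box was held by 13.6% of all promoters, the cAMP response element by 1.79%, and the CArG box by 1.63%.

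In the Ctrl colon, the constitutive cyclooxygenase gene Ptgs1 had the highest level of the group, and its libraries lay apart from all other members. Ptgis, Ptger4, Ptger3, and Ptges followed in that order, from a mean of 21.4 ± 3.06 TPM (rescaled, SD, n = 3) for Ptgis to 13.4 ± 0.949 for Ptges, and each overlapped its neighbor. Ptgs2 and Ptger1 came next and overlapped each other, and Ptger2, Ptgfr, and Ptgds closed the order without overlap. The Ctrl bladder had another order. Ptgis was highest with 160.4 ± 41.9 TPM (SD, n = 3), above Ptgs1 with 105 ± 25.3 TPM, and Ptges, Ptger3, Ptgs2, and Ptger4 formed an overlapping run below them. The libraries of Ptgis and Ptgs1 were narrowly apart on TPM as deposited (lowest 135.4 against highest 131.5) and overlapped after rescaling. Ptger2, Ptger1, and Ptgfr formed the lowest overlapping run, and Ptgds was again last. In Y/T KO bladder the libraries of Ptgis and Ptgs1 overlapped on both scales, Ptger4 and Ptgs2 exchanged places within their overlap, and Ptgfr stood above Ptger2 and Ptger1. In Y/T KO colon Ptger4 and Ptgis exchanged places, as did Ptges and Ptger3, each pair within its overlap.

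**Figure D1:**
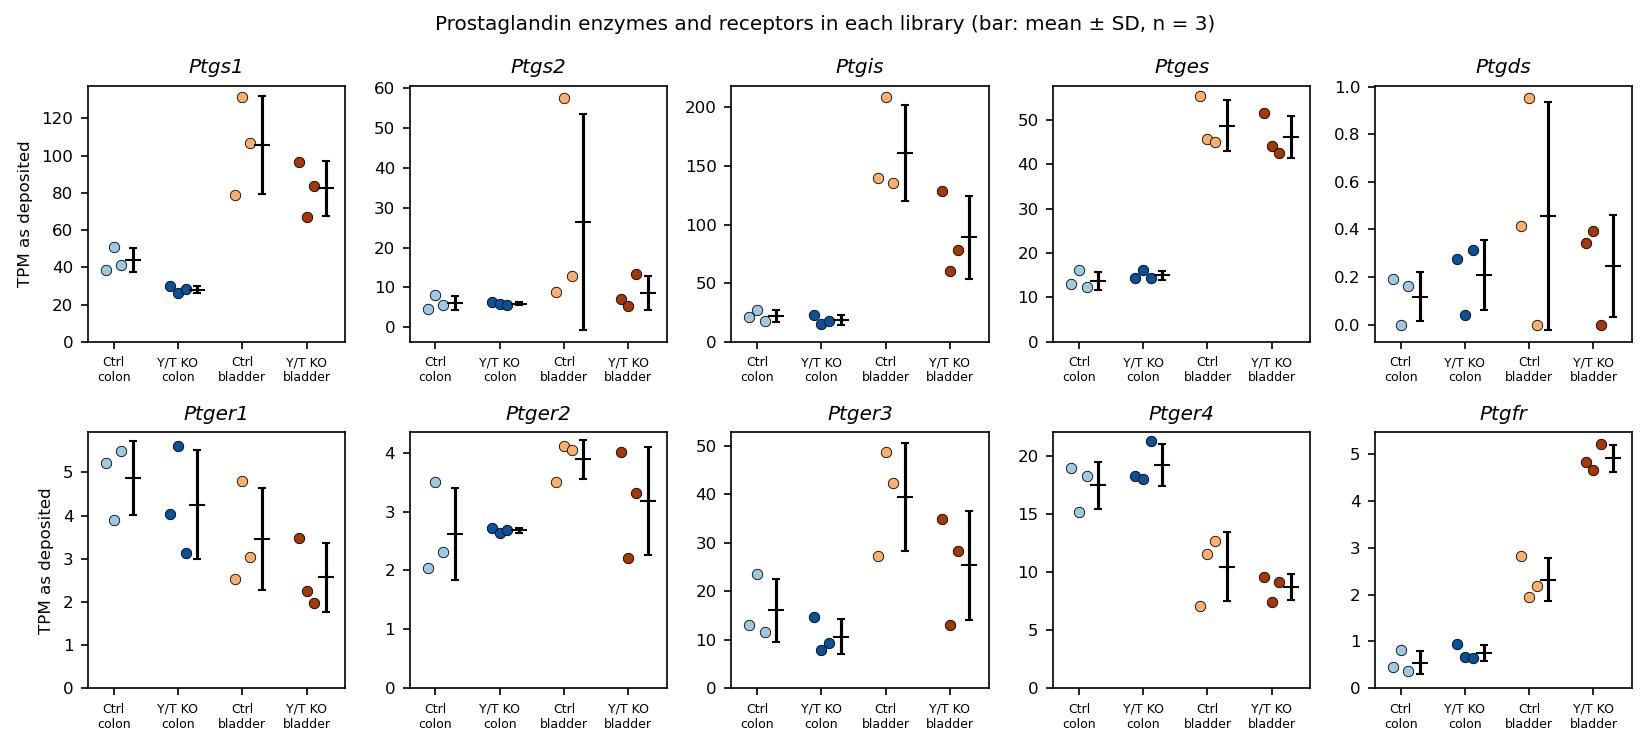
TPM as deposited (vertical axis, separate linear scale per gene) of each member in Ctrl and Y/T KO colon and bladder, with 1 point per library and a bar for the mean ± SD of 3 libraries. Ptgs1, Ptgis, Ptges, and Ptgfr sit higher in the bladder than in the colon in both genotypes, Ptger4 sits lower, and a single Ctrl bladder library carries the high Ptgs2 mean.

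In the colon, the Y/T KO was compared with Ctrl to ask which transcripts depend on YAP and TAZ in smooth muscle. None of the 9 members tested was called by limma, compared with 0.137% of all genes tested (24 of 17500), and 1 member (Ptgs1) had an unadjusted p under 0.05, which 9.73% of all genes had. Ptgs1 was also the only member whose genotypes did not overlap, compared with 16.1% of all genes. The median log2 difference was 0.024 over the 9 members and 0.006 over all genes tested. Ptgds failed the filter, and Ptgfr passed it with all 3 Y/T KO libraries but only 1 Ctrl library, so that its presence in the test depended on the genotype where it was higher.

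Ptgs1 encodes COX-1, the cyclooxygenase made without induction in smooth muscle, fibroblasts, and the tuft cells of the gut epithelium. Its TPM was 38.8, 51.1, and 41.5 in Ctrl colon against 29.8, 26.3, and 28.2 in Y/T KO colon. All 3 Y/T KO libraries lay below all 3 Ctrl libraries. The log2 difference was -0.59 (SE 0.14, 95% interval -0.92 to -0.27), and its adjusted p of 0.264 did not pass. Leaving out 1 library at a time gave -0.66 to -0.54, with an adjusted p of 0.237 to 0.612. Beside it, the smooth muscle sum was lower without overlap in the values given above, and 9 of 9 smooth muscle markers had a negative difference, 6 of them without overlap and none called. Markers of tuft cells (5 genes) summed to 15.2 to 17.5 TPM in Ctrl and 10.5 to 14.3 in Y/T KO colon. Those of colon epithelium summed to 4213 to 4986 and 2799 to 4097, and neither sum overlapped. Of the tuft cell markers 4 were lower and 1 higher, and of the 6 epithelial markers tested 4 were lower and 2 higher. Fibroblast markers (7 genes) overlapped, at 1941 to 2570 TPM in Ctrl and 2168 to 2660 in Y/T KO colon, with 2 lower and 5 higher. The part of these cell types in the Ptgs1 difference was not tested. In a bulk sample, fewer cells of a type and less RNA per cell cannot be told apart.

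Ptgs2, the inducible cyclooxygenase (COX-2), overlapped between genotypes in the colon. It measured 4.68, 8.08, and 5.68 TPM in Ctrl against 6.30, 5.82, and 5.71 in Y/T KO colon. The Y/T KO libraries lay inside the Ctrl range, and the log2 difference was 0.02 (SE 0.22, adjusted p = 0.981), with a sign that turned to -0.012 on TPM as deposited. Ptgs1 as a share of both cyclooxygenases was 89.2%, 86.4%, and 88.0% in Ctrl colon and 82.6%, 81.9%, and 83.1% in Y/T KO colon. These shares did not overlap, and the means differed by -5.33 percentage points, with an exact two-sided permutation p of 0.1, the smallest that 3 against 3 libraries allow, and 0.2 after adjustment over the 8 share tests made.

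The other colon enzymes overlapped between genotypes. Ptgis, prostacyclin synthase, gave 21.1, 27.2, and 17.8 TPM in Ctrl against 23.2, 14.8, and 17.9 in Y/T KO colon, with a log2 difference of -0.20 (SE 0.21, adjusted p = 0.760). Ptges, the microsomal PGE2 synthase that works with COX-2, gave 13.0, 16.1, and 12.3 in Ctrl against 14.3, 16.1, and 14.5 TPM in Y/T KO, with a log2 difference of 0.16 (SE 0.15, adjusted p = 0.743). Both sets of libraries interleaved. Ptgds, the lipocalin-type PGD2 synthase, was listed at 0 in 1 Ctrl library and reached 0.19 TPM at most in the others, with 0.04 to 0.31 TPM in Y/T KO colon, an exact two-sided permutation p of 0.4, and too little coverage to compare.

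Among the colon receptors, none separated by genotype. Ptger3, the inhibitory EP3 receptor for PGE2, had 13.1, 23.6, and 11.6 TPM in Ctrl colon against 14.8, 7.82, and 9.34 in Y/T KO colon, and a log2 difference of -0.54 (SE 0.30, adjusted p = 0.610). Ctrl mouse 786 was the highest of the 6, and Y/T KO mouse 759 lay above the other two Ctrl libraries. Ptger4, the EP4 receptor that raises cAMP, had 19.0, 15.2, and 18.3 TPM in Ctrl against 18.4, 18.1, and 21.4 in Y/T KO colon, with a log2 difference of 0.17 (SE 0.19, adjusted p = 0.772). Ptger1, the EP1 receptor that acts through calcium, had 5.23, 3.90, and 5.49 in Ctrl against 4.03, 5.61, and 3.12 TPM in Y/T KO. Ptger2, the EP2 receptor that raises cAMP, had 2.05, 3.50, and 2.31 in Ctrl against 2.72, 2.63, and 2.69 TPM in Y/T KO. Their log2 differences were -0.18 (SE 0.29, adjusted p = 0.853) and 0.10 (SE 0.25, adjusted p = 0.908). Ptgfr, the contractile receptor for PGF2α, was low, at 0.446, 0.824, and 0.376 TPM in Ctrl against 0.946, 0.662, and 0.643 in Y/T KO colon, with a log2 difference of 0.47 (SE 0.40, adjusted p = 0.714).

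**Figure D2:**
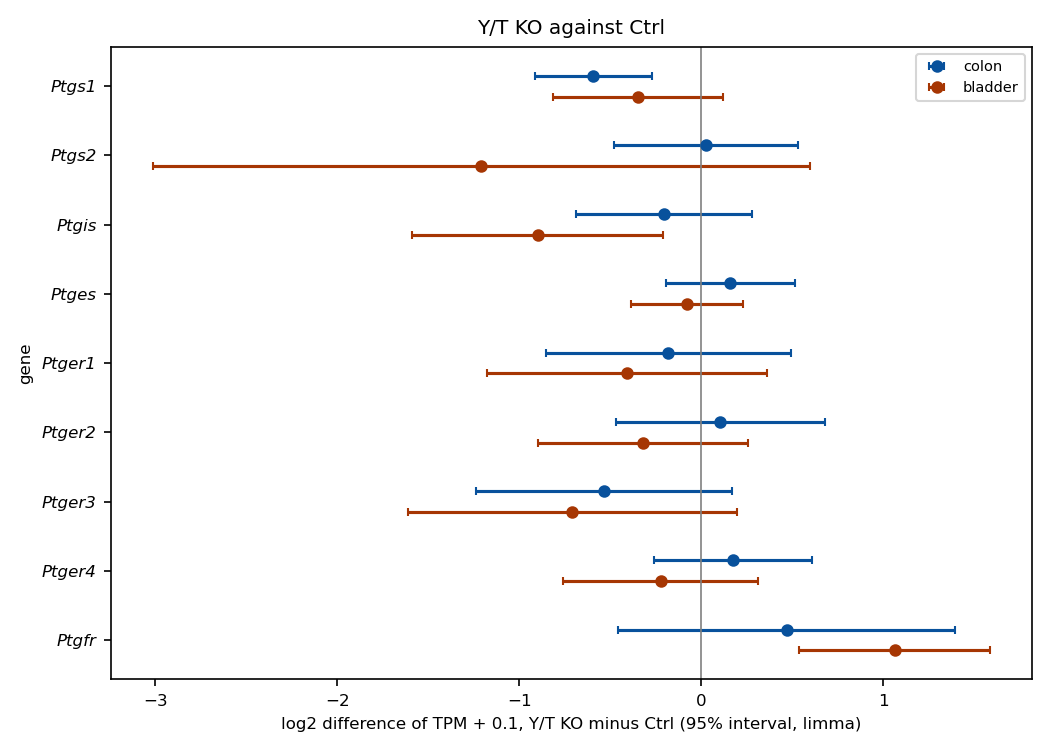
Log2 difference of TPM + 0.1 between Y/T KO and Ctrl (horizontal axis) for the 9 tested members in colon (blue) and bladder (brown), with limma's 95% interval over 3 against 3 libraries. No adjusted p was under 0.05, 3 intervals leave out 0 (Ptgs1 in colon, Ptgis and Ptgfr in bladder), and the interval of Ptgs2 in bladder is the widest.

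In the bladder, the same comparison again called none of the 9 members tested, compared with 0.302% of all genes tested (55 of 18237). At an unadjusted p under 0.05 there were 2 members, Ptgis and Ptgfr, compared with 14.8% of all genes, and the same 2 members were those whose genotypes did not overlap, compared with 22% of all genes. The log2 difference was negative for 8 of the 9 members, with a median of -0.35, whereas 49.8% of all genes tested were negative and their median was 0.002. Because no member was called, these counts describe these 6 libraries.

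Ptgis had the highest level of the group in Ctrl bladder and was the only member whose Y/T KO bladder libraries all lay below it. Its TPM was 139.6, 208, and 135 in Ctrl against 129, 60.4, and 78 in Y/T KO bladder. Y/T KO mouse 782 came close to the lowest Ctrl library, and mice 783 and 780 were far lower. The log2 difference was -0.90 (SE 0.29, 95% interval -1.59 to -0.21), with an adjusted p of 0.244 that did not pass. It ran from -1.17 without Y/T KO mouse 782 to -0.68 without mouse 783 (adjusted p 0.101 to 0.540 over the 6 fits with 1 library left out). Mouse 782 also held the highest smooth muscle sum of the Y/T KO bladders, 30980 TPM against 20660 in mouse 783 and 16900 in mouse 780. The 5 mesothelial markers summed to 386, 149, and 201 TPM in the same order, against 276 to 459 TPM over the Ctrl bladders, and 9 of 9 smooth muscle markers and 5 of 5 mesothelial markers had a negative difference with none called. Urothelial markers (6 genes) summed to 5584, 4709, and 4376 TPM in the same order, against 5300 to 5761 TPM over the Ctrl bladders. All 6 had a negative difference, as had the 4 neutrophil markers tested, with none called. The part of these cell types in the Ptgis difference was not tested. Fibroblast markers (7 genes) overlapped, at 8317 to 9818 TPM in Ctrl and 8084 to 10160 TPM in Y/T KO bladder.

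Ptgfr was the only member that stood higher in Y/T KO bladder. Its TPM was 2.83, 1.94, and 2.19 in Ctrl against 4.83, 4.66, and 5.21 in Y/T KO bladder. All 3 Y/T KO libraries lay above all 3 Ctrl libraries, and the Y/T KO mice lay close together. The log2 difference was 1.06 (SE 0.22, 95% interval 0.54 to 1.59) with an adjusted p of 0.138, and it ran from 0.95 to 1.23 when 1 library was left out, with an adjusted p of 0.141 to 0.375. Neuronal markers (6 genes) summed to 340.3 to 482 TPM in Ctrl and 467 to 585 TPM in Y/T KO bladder, and adipocyte markers (5 genes) to 1871 to 3799 and 3172 to 4955 TPM. Both sums overlapped between genotypes. Of the neuronal markers 5 were higher and 1 lower, and 5 of 5 adipocyte markers were higher. Of 3 markers of interstitial cells of Cajal, 2 were higher and 1 lower, each without overlap, compared with 22% of all genes. None of these markers was called, and the part of these cell types in the Ptgfr difference was not tested.

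The Ptgs2 difference in the bladder depended on 1 library. Its TPM was 8.81, 57.6, and 12.8 in Ctrl against 7.21, 5.30, and 13.5 in Y/T KO bladder. Ctrl mouse 785 had the high value, and the remaining 5 bladder libraries ran from 5.30 to 13.5 TPM with both genotypes mixed. The log2 difference of -1.21 (SE 0.74, adjusted p = 0.496) shrank to -0.40 (adjusted p = 0.791) without mouse 785. The 8 immediate-early genes summed to 109, 1007, and 354 TPM in the Ctrl bladders and to 127, 254, and 426 TPM in the Y/T KO bladders. Mouse 785 was highest in this sum as well, with 212 TPM of Fos against 12.4 in mouse 784 and 84.0 in mouse 788. In the colon, the immediate-early sum was 162 to 280.0 TPM in Ctrl and 329.8 to 543 TPM in Y/T KO, without overlap, while Ptgs2 overlapped. What the immediate-early genes had to do with Ptgs2 was not tested.

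**Figure D3:**
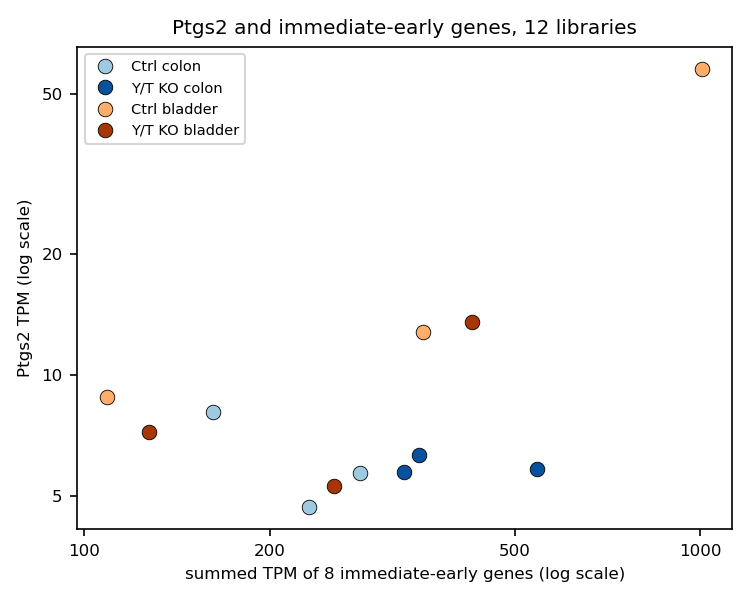
Ptgs2 TPM (vertical axis, log scale) against the summed TPM of 8 immediate-early genes (horizontal axis, log scale), 1 point per library. Ctrl bladder mouse 785 stands apart in both (57.6 and 1007 TPM), the other bladder libraries run from 5.30 to 13.5 TPM of Ptgs2, and the 3 Y/T KO colon libraries have higher immediate-early sums than Ctrl colon at a similar Ptgs2 level.

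Ptgs1 in the bladder measured 79.1, 132, and 107 TPM in Ctrl against 96.3, 67.2, and 83.6 in Y/T KO. The genotypes overlapped, with Ctrl mouse 784 below Y/T KO mice 782 and 780, and the log2 difference was -0.35 (SE 0.19, adjusted p = 0.454). Ptges was the steadiest enzyme, with 55.4, 45.6, and 45.1 TPM in Ctrl against 51.5, 44.1, and 42.6 in Y/T KO bladder, a log2 difference of -0.08, and an interval of -0.39 to 0.23. Ptgds ranged from 0 to 0.95 TPM in Ctrl and from 0 to 0.39 TPM in Y/T KO bladder, failed the filter, and gave an exact two-sided permutation p of 0.5.

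The PGE2 receptors of the bladder all had negative but overlapping differences. Ptger3 had 27.2, 48.8, and 42.4 TPM in Ctrl against 34.9, 13.0, and 28.2 in Y/T KO bladder. Mouse 783 was the lowest, and the log2 difference of -0.71 (SE 0.37, adjusted p = 0.430) shrank to -0.32 (adjusted p = 0.666) without it. Over the 12 libraries of both tissues, the gene most like Ptger3 of 16776 compared was Lrrn4, a mesothelial marker (Pearson r = 0.973). That value includes the difference between tissues and was not taken over the bladder alone. The part of mesothelium in the Ptger3 difference was not tested. Ptger4 had 7.13, 11.6, and 12.7 in Ctrl against 9.59, 7.46, and 9.21 TPM in Y/T KO, with a log2 difference of -0.22 (SE 0.22, adjusted p = 0.679). Ptger1 had 2.53, 4.80, and 3.05 in Ctrl against 3.47, 2.25, and 1.98 TPM in Y/T KO. Ptger2 had 3.50, 4.11, and 4.05 in Ctrl against 4.02, 2.21, and 3.31 TPM in Y/T KO. Neither pair of groups separated, and their log2 differences were -0.41 (SE 0.32, adjusted p = 0.595) and -0.32 (SE 0.24, adjusted p = 0.579).

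Whether the knockout acted differently on the members in colon and bladder was tested by the interaction term over all 12 libraries. It called 0 of 9 members, compared with 0.0607% of all genes tested (12 of 19773), and 0 of 9 had an unadjusted p under 0.05, compared with 11.9% of all genes. The term, colon minus bladder, was 0.67 (SE 0.37) for Ptgis, -0.60 (SE 0.41) for Ptgfr, and -0.27 (SE 0.24) for Ptgs1, and their intervals were -0.15 to 1.49, -1.50 to 0.29, and -0.79 to 0.25. The differences seen in a single tissue were therefore not shown to be particular to it.

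Colon and bladder were then compared within each genotype. In Ctrl mice, 6 of the 9 members tested were called, 5 lower and 1 higher in colon, compared with 50.4% of all genes tested (25.3% lower and 25.1% higher). In Y/T KO mice, 6 of 9 were called as well, 4 lower and 2 higher in colon, compared with 51.3% of all genes (25.6% lower and 25.8% higher). The tissues did not overlap for 7 of the 9 members in Ctrl mice and 6 of the 9 in Y/T KO mice, compared with 58.6% and 59.2% of all genes. The median log2 difference of the members, colon minus bladder, was -1.06 in Ctrl and -0.91 in Y/T KO mice, whereas the medians of all genes tested were 0.014 and 0.005. On TPM as deposited the medians of all genes moved to -0.24 and -0.26, so the differences below are relative to the rescaled libraries. The interaction above is also the test of whether the tissue difference depended on genotype.

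Of the member enzymes, Ptgis, Ptges, and Ptgs1 were lower in colon than in bladder in both genotypes. Ptgis had a log2 difference of -2.60 (SE 0.26, adjusted p = 8.78e-06) in Ctrl and -1.92 (SE 0.26, adjusted p = 9.18e-05) in Y/T KO mice, the largest of the member enzymes. Ptges followed with -1.56 (SE 0.13, adjusted p = 1.89e-06) and -1.34 (SE 0.13, adjusted p = 6.34e-06), and Ptgs1 with -0.99 (SE 0.17, adjusted p = 4.61e-04) and -1.26 (SE 0.17, adjusted p = 7.52e-05). For these 3 enzymes every colon library of a genotype lay below every bladder library of that genotype. The gene 1110018N20Rik, which shares 1004 bases with Ptgis on the opposite strand and was at 1.15 to 12.6 TPM, differed in the same direction (-2.32 in Ctrl and -2.34 in Y/T KO mice). Ptgs2 was not called, with -1.37 (SE 0.57, adjusted p = 0.0678) in Ctrl and -0.16 (SE 0.57, adjusted p = 0.839) in Y/T KO mice. Its Ctrl value passed on TPM as deposited (-1.62, adjusted p = 0.0382) and without Ctrl bladder mouse 784 (-1.89, adjusted p = 0.0181). Over all fits with 1 library left out, however, it ran from -1.89 to -0.56, with a limma adjusted p of up to 0.208.

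The receptors divided by tissue. Ptgfr was lower in colon, with a difference of -1.71 (SE 0.29, adjusted p = 4.20e-04) in Ctrl and -2.32 (SE 0.29, adjusted p = 4.30e-05) in Y/T KO mice, on the log2 scale, where its low colon level makes the value depend on the 0.1 TPM added. Ptger4 was higher in colon, by 1.03 (SE 0.20, adjusted p = 0.00138) and 1.41 (SE 0.20, adjusted p = 1.47e-04), and the overlapping gene Ttc33 differed by -0.18 and -0.25 without being called. Ptger3 was lower in Ctrl colon, at -1.06 (SE 0.37, adjusted p = 0.0325), but the call was lost without Ctrl colon mouse 788 (adjusted p = 0.0963) or 787 (adjusted p = 0.113) and without Ctrl bladder mouse 785 (adjusted p = 0.109) or 788 (adjusted p = 0.0816). In Y/T KO mice Ptger3 gave -0.91 (SE 0.37, adjusted p = 0.0594), which passed on TPM as deposited (-1.18, adjusted p = 0.0283), without colon mouse 759 (-1.17, adjusted p = 0.0300), and without bladder mouse 783 (-1.30, adjusted p = 0.00899).

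Ptger1 was higher in Y/T KO colon than in Y/T KO bladder, by 0.97 (SE 0.31, adjusted p = 0.0224), and gave 0.77 (SE 0.31, adjusted p = 0.0602) in Ctrl mice. The Y/T KO call was lost on TPM as deposited (0.71, adjusted p = 0.0782), without mouse 783 in colon (0.77, adjusted p = 0.0882) or bladder (0.93, adjusted p = 0.0592), and without bladder mouse 780 (0.80, adjusted p = 0.0828), and the Ctrl value passed without colon mouse 786 (0.98, adjusted p = 0.0348) or bladder mouse 785 (1.02, adjusted p = 0.0259). Ptger2 did not differ beyond its spread, with -0.33 (SE 0.23, adjusted p = 0.266) and 0.07 (SE 0.23, adjusted p = 0.827).

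**Figure D4:**
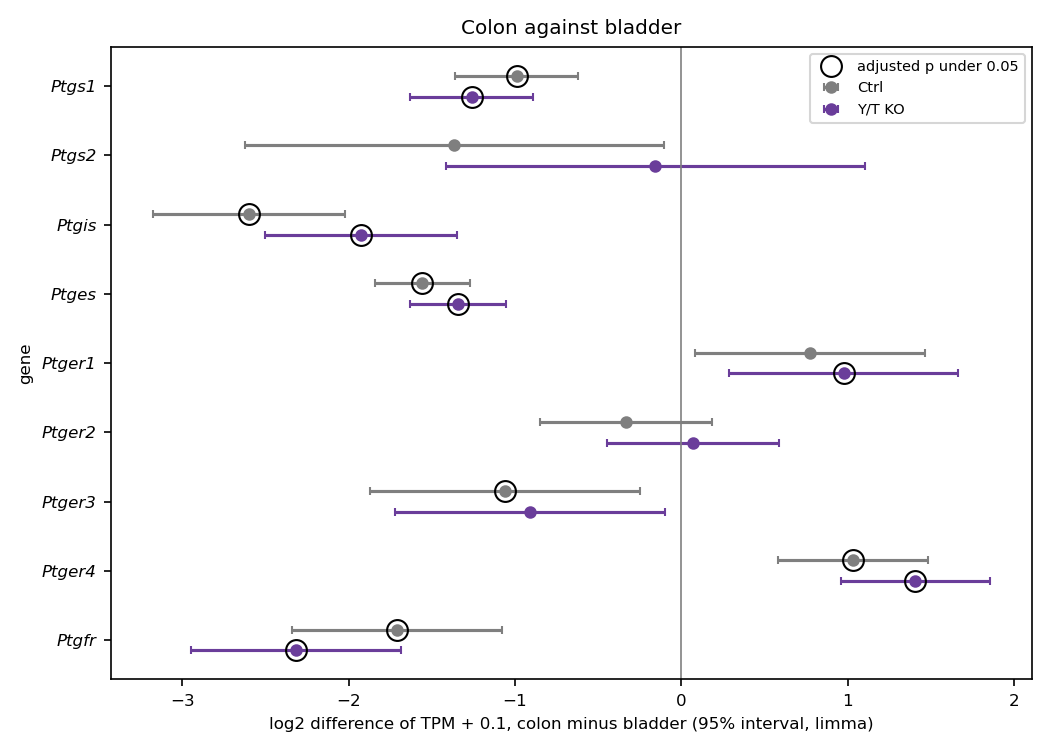
Log2 difference of TPM + 0.1 between colon and bladder (horizontal axis) for the 9 tested members in Ctrl (gray) and Y/T KO mice (purple), with limma's 95% interval and a black ring where the adjusted p was under 0.05. Ptgs1, Ptgis, Ptges, and Ptgfr are ringed below 0 and Ptger4 above 0 in both genotypes, Ptger3 only in Ctrl, and Ptger1 only in Y/T KO mice.

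Cell types of the wall differed between the tissues in the same direction as these 3 enzymes. Of the smooth muscle markers 9 of 9 were called lower in colon in both genotypes, of the fibroblast markers 6 of 7, and of the endothelial markers 5 of 5, whereas the colon epithelial markers tested were called higher (6 of 6). Called lower in colon in both genotypes were also urothelial (6 of 6), adipocyte (5 of 5), mesothelial (4 of 5), and glial markers (4 of 5, with 1 called higher). Of the macrophage markers 5 of 5 were called lower in Ctrl colon and 2 of 5 in Y/T KO colon. Of the mast cell markers tested, 3 of 5 were called lower in Ctrl colon and 2 of 5 in Y/T KO colon. Neuron, tuft cell, and neutrophil markers had at most 1 call per direction. The neuron sum was still lower in colon, at 48.6 to 60.05 against 340.3 to 482 TPM in Ctrl and 36.0 to 50.3 against 467 to 585 TPM in Y/T KO mice. Of its 6 genes, 3 were lower and 3 higher in Ctrl colon, and 4 lower and 2 higher in Y/T KO colon. The part of these cell types in the tissue differences of the members was not tested.

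By subtype, the PGE2 receptor transcripts of the bladder were mostly Ptger3 and those of the colon were shared between Ptger4 and Ptger3. Ptger3 made up 67.4%, 70.4%, and 68.1% of the summed TPM of Ptger1 to Ptger4 in Ctrl bladder and 67.1%, 52.2%, and 66.1% in Y/T KO bladder. Ptger4 made up 48.3%, 33.0%, and 48.5% in Ctrl colon and 46.0%, 52.9%, and 58.5% in Y/T KO colon. Ctrl colon mouse 786 was the exception among the colons, with 51.0% Ptger3. Over all libraries, Ptger1 took 4.63 to 16.4% and Ptger2 took 5.21 to 8.85%.

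Receptors that raise cAMP (Ptger2, Ptger4, Ptgir, and Ptgdr) were set against all 9 prostanoid receptors. Their share was 47.9% ± 6.38 (SD, n = 3) in Ctrl colon, 56.4% ± 6.50 in Y/T KO colon, 29.7% ± 2.53 in Ctrl bladder, and 33.9% ± 5.35 in Y/T KO bladder. The tissues did not overlap in either genotype, with an exact two-sided permutation p of 0.1 for each, the smallest possible, and 0.2 after adjustment over 8 tests. The genotypes overlapped in both tissues, with differences of 8.49 percentage points in colon (exact permutation p = 0.3) and 4.20 in bladder (exact permutation p = 0.5).

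**Figure D5:**
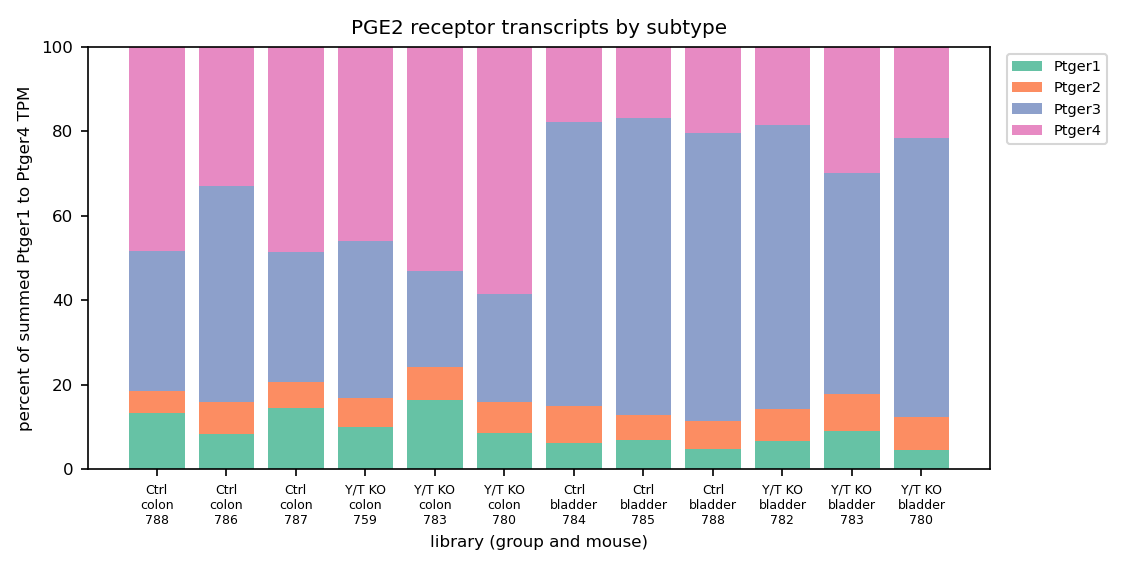
Share of each PGE2 receptor gene in the summed TPM of Ptger1 to Ptger4 (vertical axis, percent) in each of the 12 libraries, labelled by group and mouse. Ptger3 takes 52.2 to 70.4% in the bladder and 22.9 to 51.0% in the colon, and Ptger4 takes 16.7 to 29.9% in the bladder and 33.0 to 58.5% in the colon.

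The rest of the pathway was read from a list of 29 genes for arachidonate release, other terminal synthases, other receptors, transport, and breakdown. In the colon 26 of them were tested and 0 were called by limma in Y/T KO against Ctrl, with 4 at an unadjusted p under 0.05 (9.73% of all genes). In the bladder 23 were tested and 0 called, with 3 at an unadjusted p under 0.05 (14.8% of all genes). The median log2 differences were -0.06 and -0.13. On rescaled TPM, the genotypes did not overlap for 8 of the 26 in colon (4 lower and 4 higher) and 4 of the 23 in bladder, compared with 16.1% and 22% of all genes.

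Upstream of the cyclooxygenases, 2 secreted phospholipases stood apart in the colon in opposite directions. Pla2g3 was at 22.1, 39.0, and 34.7 TPM in Ctrl against 14.1, 15.0, and 9.71 in Y/T KO colon, with a log2 difference of -1.25 (SE 0.25, adjusted p = 0.190). Pla2g2a was at 21.1, 16.0, and 24.7 in Ctrl against 41.5, 33.1, and 85.7 TPM in Y/T KO, with a log2 difference of 1.30 (SE 0.38, adjusted p = 0.400). The libraries separated for both, and neither passed. Pla2g12a and Pla2g2f also stood higher without overlap, at 0.60 (SE 0.18, adjusted p = 0.405) and 0.36 (SE 0.17, adjusted p = 0.537). Downstream, the prostaglandin transporter Slco2a1 had 30.8, 33.6, and 25.6 TPM in Ctrl against 23.5, 20.5, and 16.7 in Y/T KO colon, at -0.54 (SE 0.17, adjusted p = 0.429), and the exporter Abcc4 gave -0.37 (SE 0.16, adjusted p = 0.522).

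In the bladder, Tbxa2r, the contractile thromboxane receptor, was at 2.84, 4.24, and 4.63 TPM in Ctrl against 2.41, 2.0, and 1.67 in Y/T KO, apart in all 6 libraries, with a log2 difference of -0.89 (SE 0.26, adjusted p = 0.211). Hpgd, the dehydrogenase that inactivates prostaglandins, was at 153, 123, and 205 TPM in Ctrl against 228, 199, and 229 in Y/T KO bladder, with a log2 difference of 0.47 (SE 0.17, adjusted p = 0.281). Its genotypes overlapped on these TPM as deposited and were apart only after rescaling. Hpgds, the hematopoietic PGD2 synthase, gave -0.40 (SE 0.15, adjusted p = 0.290), and Akr1b3, an aldose reductase with PGF synthase activity, gave -0.18 (SE 0.08, adjusted p = 0.371), both lower without overlap. Fam213b and Ptgr2 completed the named genes at 0.35 (SE 0.15, adjusted p = 0.342) and 0.13 (SE 0.09, adjusted p = 0.550) and overlapped. None of these passed.

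Between tissues, 9 of 27 were called lower and 7 higher in Ctrl colon, compared with 25.3% and 25.1% of all genes, and 7 lower and 7 higher in Y/T KO colon, compared with 25.6% and 25.8%. Pla2g10 was at 191, 147, and 185 TPM in Ctrl colon, Pla2g2f at 71.3, 56.4, and 63.2 TPM, and both were listed at 0 in all 6 bladder libraries, as was Pla2g2a. Pla2g2d was at 11.7, 10.8, and 8.11 TPM in Ctrl bladder and 0.617, 0.511, and 1.15 TPM in Ctrl colon, a log2 difference of -3.39 (SE 0.34, adjusted p = 8.51e-06), and gave -3.84 (SE 0.34, adjusted p = 3.12e-06) in Y/T KO mice. Akr1b3 was lower in colon, with -1.86 (SE 0.13, adjusted p = 3.40e-07) in Ctrl and -1.80 (SE 0.13, adjusted p = 4.63e-07) in Y/T KO mice. Abcc4 was lower with -1.67 (SE 0.12, adjusted p = 4.09e-07) in Y/T KO mice, and Pla2g2e with -2.46 (SE 0.84, adjusted p = 0.0302) in Ctrl mice. Pla2g2e did not exceed 0.529 TPM in any Ctrl colon library and was listed at 0 for colon mouse 787. Its bladder libraries carried it through the filter, and its low colon level makes the value depend on the 0.1 TPM added. Pla2g10, Pla2g2f, and Pla2g2a passed the filter through their colon libraries alone. The size of their differences depends on the added 0.1 TPM as well. Only the 3 largest calls per direction are named for each genotype, so a gene given for 1 genotype may also be called in the other.

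The leukotriene branch, which starts from the same arachidonate, was read from 10 genes, of which 9 were tested in each tissue. Limma called 0 of them in either genotype comparison, with 1 at an unadjusted p under 0.05 in each (9.73% of all genes in colon and 14.8% in bladder). In colon this was Alox12, a lipoxygenase, with 0.76 (SE 0.28, adjusted p = 0.470), and in bladder Ltc4s, the leukotriene C4 synthase, with -0.85 (SE 0.31, adjusted p = 0.285), both without overlap. The remaining genes named by the same rule overlapped. In colon they were Alox5 at -0.50, Cysltr1 at -0.23, Lta4h at -0.08, Alox5ap at 0.34, and Ltc4s at 0.42, and in bladder Alox5 at -0.41, Alox15 at -0.66, Alox12 at 0.17, and Cysltr2 at 0.00 (log2 differences). Between tissues, Alox12 was lower in colon in both genotypes, at -3.31 (SE 0.19, adjusted p = 9.16e-08) and -2.74 (SE 0.19, adjusted p = 4.49e-07) and Lta4h, the leukotriene A4 hydrolase, was higher, at 0.76 (SE 0.11, adjusted p = 1.96e-04) and 0.68 (SE 0.11, adjusted p = 4.34e-04). In all, 6 of the 9 were called lower and 1 higher in Ctrl colon, compared with 25.3% and 25.1% of all genes. In Y/T KO colon 4 were called lower and 1 higher, compared with 25.6% and 25.8%. Only the 3 largest per direction are named, so a gene named for 1 genotype may also be called in the other. Named for Ctrl colon were Ltc4s and Alox15, lower at -1.88 (SE 0.31, adjusted p = 3.44e-04) and -2.41 (SE 0.91, adjusted p = 0.0456). The Alox15 libraries of the tissues overlapped, whereas those of Ltc4s did not. Named for Y/T KO colon were Ltb4r1 and Cysltr1, lower at -1.04 (SE 0.37, adjusted p = 0.0339) and -0.83 (SE 0.24, adjusted p = 0.0117).

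The single gene whose log2 level was most like that of a member over the 12 libraries, of 16776 genes with a mean of at least 1 TPM, was Adcy1 for Ptges (Pearson r = 0.996), Itgb1 for Ptgis (0.991), Klhl7 for Ptgfr (0.986), Tti1 for Ptgs1 (0.984), and Prr13 for Ptger4 (0.980). For Ptger1 it was Zc3h10 (0.949), for Ptgs2 Igkv4-51 (0.928), and for Ptger2 0610037L13Rik (0.880). The points share tissue and, for 3 mice, the animal, and the values are given as a description.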

How the data were processed

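Libraries of polyadenylated RNA (stranded TruSeq kit) were quantified by the authors, whose processing notes name HISAT2, StringTie, and GRCm38. The values used here are TPM as deposited by the authors, scaled per transcript length and to the same sum in each library. The deposited FPKM and the deposited coverage (mean reads per base), also made by the authors, were used only for the aligned bases per library, taken from their ratio, and for depth. Member coverage ran from 0 to 0.96 for Ptgds, 0.60 to 6.52 for Ptgfr, and 22.7 to 106 for Ptgs1. Read counts and the counting error of single values were not used here, so p-values rest on the spread between libraries. That spread holds differences between mice and counting error together.

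Values of a gene ID were summed. TPM was divided by median-of-ratios size factors of the fitted libraries, and log2(TPM + 0.1) was fitted with limma 3.58.1 (lmFit, and eBayes with trend and robust options) in R 4.3.3. The filter of 0.5 TPM in 3 or more fitted libraries left 17500 genes in colon, 18237 in bladder (6 libraries each), and 19773 for tissue and interaction contrasts (12 libraries). Calls were made at a Benjamini-Hochberg adjusted p under 0.05 over all of these. Shares and Ptgds were tested by exact two-sided permutation, for which 3 against 3 cannot give less than 0.1. The fit was tested on simulated data. Groups come from the labels. Same-mouse libraries come from the same animal. Their deviations from the group means correlated at -0.01, 0.07, and 0.04 (mice 788, 783, and 780), and the mouse as a block was an alternative.

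The members, the gene lists, and the tests were chosen with earlier results of these data known. The text names all members. From the other prostanoid and leukotriene genes it names, per list and direction, the 3 with the smallest p in a genotype contrast and the 3 with the largest difference among those called in a tissue contrast. For each member it names the gene most like it. One comparison that bears on Ptger1 is not reported here.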

Additional observations from a re-analysis of the deposited data

How the results depend on the processing

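Pseudocounts of 0.5 and 1 TPM, no filter on low values, TPM as deposited, limma without its trend and robust options, all 12 libraries in one fit (genotype contrasts), and each library left out in turn were tried. Over all of these, members called numbered 0 in both genotype contrasts and the interaction, and 5 to 7 in each tissue contrast with 1 library left out. With the mouse as a replicate block, 6 members were called in each tissue contrast and 0 in the interaction, the counts over all genes were 10028, 10314, and 12, and the block changed no call of a member. The count of all genes called in colon (24) was 6 without the filter and 69 with all 12 libraries in one fit, and 5 to 63 with 1 library left out (63 without Y/T KO mouse 759). In bladder (55) it was 11 to 51 with 1 library left out (11 without Ctrl mouse 785 or 788). For the interaction (12) it was 19 with a pseudocount of 1 TPM, 22 without the trend and robust options, and 8 to 31 with 1 library left out (31 without colon mouse 759). Of the other prostanoid genes 0 to 1 was called with 1 library left out, in bladder and in the interaction, namely Cbr1 without Y/T KO bladder mouse 780 (-1.87, adjusted p = 0.0302, and 1.82, adjusted p = 0.0433), named after its values were seen.

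Directions turned for values near 0. On TPM as deposited these were Ptgs2 in colon (-0.012) and Ptger2 between Y/T KO tissues (-0.20). With 1 library left out the ranges were -0.13 to 0.17 for Ptgs2, -0.027 to 0.26 for Ptger2, and -0.39 to 0.0066 for Ptger1 in colon, -0.16 to 0.038 for Ptges in bladder, -0.13 to 0.23 for Ptger2 and -0.42 to 0.20 for Ptgs2 between Y/T KO tissues, and -0.052 to 0.41 for Ptger1 and -0.23 to 0.42 for Ptger3 in the interaction. The cause was not tested. Depth limits Ptgds and Ptgfr in colon most, and with 3 mice a group the 95% intervals of the overlapping members Ptgs2, Ptger3, and Ptger1 in bladder and Ptger3 and Ptgfr in colon reach past 1 log2 unit.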
